A study of Mus musculus with 4 samples.

Results

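The glutathione and Nrf2-dependent antioxidant genes described here are 10 genes taken by symbol from the deposited expression table, of 23951 rows once spike-in sequences are set aside. They are Nfe2l2 itself, the glutathione synthesis genes Slc7a11, Gclc and Gclm, the glutathione transferases Gsta4, Gstm1 and Gstp1, and the redox enzymes Txnrd1, Srxn1 and Nqo1. All 10 had a row, and all 10 reached the minimum of 1 FPKM in at least 2 libraries that was set for testing. RNA was sequenced from mammary tumor cells of female MMTV-PyMT mice, whose polyoma virus middle T antigen transgene is driven in mammary epithelium by the MMTV promoter. Every mouse carried the Rosa26-Stop-YFP reporter (R26Y), and every mouse received Ad-K8-Cre, an adenovirus with Cre under the Krt8 promoter, by injection into the mammary ducts. Cells positive for YFP, which marks Cre recombination, were sorted 2 to 3 months later.

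There were 2 libraries titled Lsd1 knockout, from mice with conditional Lsd1L/L alleles per the series description, and 2 titled wild-type (Lsd1+/+). The question is what LSD1 loss does to expression in these tumor cells. LSD1 is a histone demethylase encoded by Kdm1a. For both samples titled knockout, the tissue label gives Lsd1+/+ all the same. Kdm1a was at 20.2 and 22.8 FPKM in these libraries, against 52.5 and 22.9 FPKM in wild-type, a difference within the spread between replicates (limma, adjusted p = 0.34). They are called knockout-labelled libraries for that reason. Whether each library came from a mouse of its own is not said, and the p-values reflect the spread of these 4 libraries, which may be technical.

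Nrf2, the transcription factor encoded by Nfe2l2, is held at a low level by Keap1, which hands it to a ubiquitin ligase for degradation. When oxidants or electrophiles modify Keap1, Nrf2 accumulates, pairs with small Maf proteins and binds antioxidant response elements at genes for glutathione synthesis, conjugation and thioredoxin recycling. Nrf2 activity is thus set largely at the protein level, and its own mRNA is a poor measure of it. Glutathione is made from cysteine, glutamate and glycine, and the ligase of Gclc and Gclm carries out the rate-limiting step. In mammary tumors these genes are known for protecting cells from oxidative damage and for detoxifying drugs.

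Before the results, the makeup of the libraries has to be stated. All 8 epithelial markers (Epcam, Krt8, Krt18, Krt19, Cdh1, Cldn3, Cldn4 and Elf5) were detected in every library, and their summed level was 698 and 718 FPKM in the knockout-labelled libraries, against 11689 and 2612 FPKM in wild-type. Krt8 (255 and 259 FPKM, against 4653 and 929 FPKM in wild-type) and Krt18 (254 and 261 FPKM, against 4312 and 949 FPKM) made up most of it. The 10 lymphocyte markers summed to 1802 and 1701 FPKM in the knockout-labelled libraries and to 14.8 and 61.9 FPKM in wild-type, and 10 of 10 passed as higher. The 8 macrophage markers summed to 1086 and 1011 FPKM in the knockout-labelled libraries and to 404 and 13690 FPKM in wild-type. Most of that sum was Lyz2, at 869 and 804 FPKM in the knockout-labelled libraries and 238 and 9165 FPKM in wild-type. Of the 6 neutrophil markers measured, 3 passed as higher, and they summed to 1121 and 1206 FPKM in the knockout-labelled libraries, against 260 and 550 FPKM in wild-type. Endothelial markers summed to 21.9 and 21.2 FPKM in the knockout-labelled libraries, against 30.2 and 173 FPKM in wild-type. The adipocyte list summed to 19.2 and 23.9 FPKM, against 70.3 and 375 FPKM in wild-type, nearly all of it from Fabp4. Plin1 and Lep were at 0 in every library, and Adipoq and Cidec reached no more than 0.800 and 0.548 FPKM. The list thus gives the level of Fabp4 and not of adipocyte markers in general. Myoepithelial markers stood at 60.4 and 65.1 FPKM, against 329 and 107 FPKM in wild-type, and fibroblast markers at 165 and 161 FPKM, against 173 and 470 FPKM in wild-type. The 2 wild-type libraries thus stood apart from each other, the first rich in epithelial and the second in macrophage transcripts. Their Pearson correlation across tested genes was 0.85, against 0.98 for the pair labelled knockout. In such bulk samples fewer cells of a type and less RNA per cell cannot be told apart.

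Of the 10 genes, 5 fell in the knockout-labelled libraries at an adjusted p of 0.05 (limma, Benjamini-Hochberg over 11138 genes), and none rose. These were Nqo1, Gsta4, Srxn1, Txnrd1 and Gclm. Over all tested genes 6.99% passed as lower and 9.51% as higher. Because the 10 genes were chosen with earlier results of these data known, the shares are a description only. The knockout-labelled libraries lay below both wild-type libraries for 6 of the 10 genes and above them for 2, where all tested genes gave 32.1% below and 39.3% above. The median difference of the 10 genes in mean log2(FPKM + 1) was -1.16, and that of all tested genes was 0.08. All 5 calls ended without either knockout-labelled library and with no filter on low values. When the replicate number was a block, 2 calls held (Nqo1 and Srxn1), as did 2 after all libraries were scaled to 1 shared total (Srxn1 and Txnrd1).

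**Figure D1:**
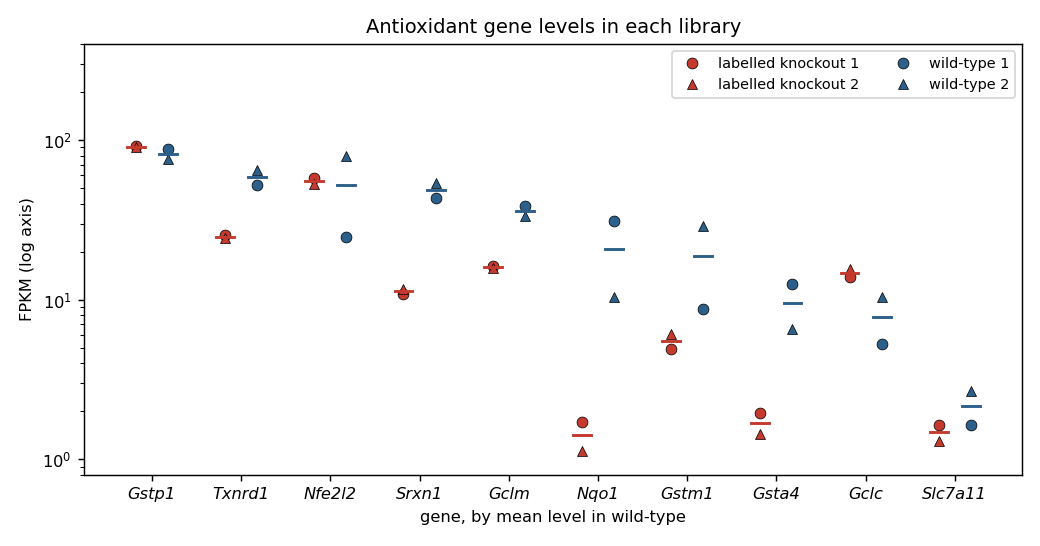
FPKM of the 10 genes on a log axis, with 1 point per library, circles for replicate 1 and triangles for replicate 2, and a bar at each group's mean. The red points of the knockout-labelled libraries lie below both blue wild-type points for Txnrd1, Srxn1, Gclm, Nqo1, Gstm1 and Gsta4, and above them for Gstp1 and Gclc.

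Srxn1 encodes sulfiredoxin, which repairs peroxiredoxins that have been over-oxidized. It was at 10.9 and 11.6 FPKM in the knockout-labelled libraries, against 43.2 and 53.9 FPKM in wild-type. The groups did not overlap, and each pair was close. Srxn1 averaged 4.31-fold lower in the knockout-labelled libraries, with a difference of -2.01 in mean log2(FPKM + 1) (SE 0.21, n = 2 and 2; limma, adjusted p = 0.025). Among the 10 genes it had the lowest adjusted p.

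Txnrd1 encodes the cytosolic thioredoxin reductase, the selenoenzyme that keeps thioredoxin reduced. Its level was 25.5 and 24.2 FPKM in the knockout-labelled libraries, against 52.3 and 65.3 FPKM in wild-type. Both knockout-labelled libraries were lower than either wild-type library, by 2.37-fold on average (difference -1.20, SE 0.21; limma, adjusted p = 0.040). Both genes were 1.25-fold higher in the second than in the first wild-type library, so the level of Srxn1 relative to Txnrd1 was 0.826 in each of them. In the knockout-labelled libraries that ratio was 0.429 and 0.479. The ratios did not overlap between the groups, but with 2 against 2 libraries the exact permutation test (two-sided) cannot go below p = 0.33, which was its value.

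Nqo1 encodes a quinone reductase that is a much-used readout of Nrf2 activity. It had 1.71 and 1.12 FPKM in the knockout-labelled libraries, against 31.2 and 10.4 FPKM in wild-type. The fall was 14.7-fold on average, with a difference of -3.00 (SE 0.59; limma, adjusted p = 0.048). Its values in the knockout-labelled libraries are near the pseudocount of 1, and with a pseudocount of 0.1 the difference was -3.61. Of the 10 genes Nqo1 had the most negative difference, and 0.46% of all tested genes had one as low or lower. The wild-type libraries themselves differed 3.01-fold, and the difference was -2.24 with the first of them left out and -3.75 with the second left out.

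Of the 3 glutathione synthesis genes, Gclm passed and Gclc and Slc7a11 did not. Gclm, the modifier subunit of glutamate-cysteine ligase, was at 16.3 and 15.7 FPKM in the knockout-labelled libraries, against 38.5 and 33.2 FPKM in wild-type. It fell 2.24-fold (difference -1.11, SE 0.19; limma, adjusted p = 0.040), with no overlap between the groups. Gclc, the catalytic subunit, was at 14.0 and 15.5 FPKM in the knockout-labelled libraries, against 5.27 and 10.4 FPKM in wild-type. Its values lay above both wild-type libraries and its difference of 0.89 (SE 0.37) did not pass (limma, adjusted p = 0.16). With the first wild-type library left out that difference was 0.46, and with the second left out 1.32.

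Within each library, the Gclm level relative to the Gclc level was 1.16 and 1.02 in the knockout-labelled libraries, against 7.30 and 3.19 in wild-type. The mean of the log2 ratio was 0.12 ± 0.14 in the knockout-labelled libraries and 2.27 ± 0.84 in wild-type (SD, n = 2 each; exact permutation test, two-sided, p = 0.33, the smallest value 2 against 2 allows). The ratio does not say which subunit moved, and a difference in it between the groups was not established. Of the 5 such ratios computed, all between members of the list or their copies, none could reach 0.05, and the adjusted p was 0.33 for each.

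Slc7a11 encodes the cystine-glutamate antiporter that supplies cysteine for glutathione. It was at 1.65 and 1.31 FPKM in the knockout-labelled libraries, against 1.63 and 2.66 FPKM in wild-type. The groups overlapped, and the difference of -0.33 (SE 0.26) was not past the threshold (limma, adjusted p = 0.41). Values this near the pseudocount of 1 have their difference understated on the log2(FPKM + 1) scale.

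Among the 3 glutathione transferases, which join glutathione to electrophiles, 1 passed. Gsta4, an alpha-class enzyme that acts on the lipid peroxidation product hydroxynonenal, was at 1.95 and 1.44 FPKM in the knockout-labelled libraries, against 12.5 and 6.55 FPKM in wild-type. It fell 5.62-fold (difference -1.91, SE 0.38; limma, adjusted p = 0.048) without overlap. The call sat at the threshold, since it also ended with a pseudocount of 0.1 (adjusted p = 0.0505) and after quantile normalization (adjusted p = 0.0514).

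Gstm1, a mu-class transferase, was at 4.90 and 6.06 FPKM in the knockout-labelled libraries, against 8.70 and 29.0 FPKM in wild-type. The knockout-labelled libraries were lower, but the second wild-type library was 3.34-fold above the first. The difference of -1.40 (SE 0.62) did not pass (limma, adjusted p = 0.18), and it was -0.59 with the second wild-type library left out and -2.22 with the first left out.

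Gstp1, the pi-class transferase, was the most abundant of the 10 genes in both groups. It was at 91.4 and 90.6 FPKM in the knockout-labelled libraries, against 88.3 and 76.1 FPKM in wild-type, a difference of 0.15 (SE 0.17; limma, adjusted p = 0.56). Its near copy Gstp2 was at 43.9 and 42.8 FPKM in the knockout-labelled libraries, against 39.6 and 35.0 FPKM in wild-type (difference 0.21, SE 0.18; limma, adjusted p = 0.43). The Gstp2 level relative to Gstp1 was between 0.448 and 0.480 in all 4 libraries. Because the pair are near copies, reads may be shared between them, and the split is uncertain. Mu-class genes are also alike in sequence, and the same holds for Gstm1 and its relatives described below.

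Nfe2l2 was at 57.6 and 52.9 FPKM in the knockout-labelled libraries, against 24.7 and 80.0 FPKM in wild-type. Both knockout-labelled libraries lay between the 2 wild-type values, and the difference of 0.30 (SE 0.62) did not pass (limma, adjusted p = 0.74). Its direction turned on the wild-type library used, at -0.53 without the first and 1.13 without the second. The mRNA of the factor itself was thus not resolved between the groups in these libraries.

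**Figure D2:**
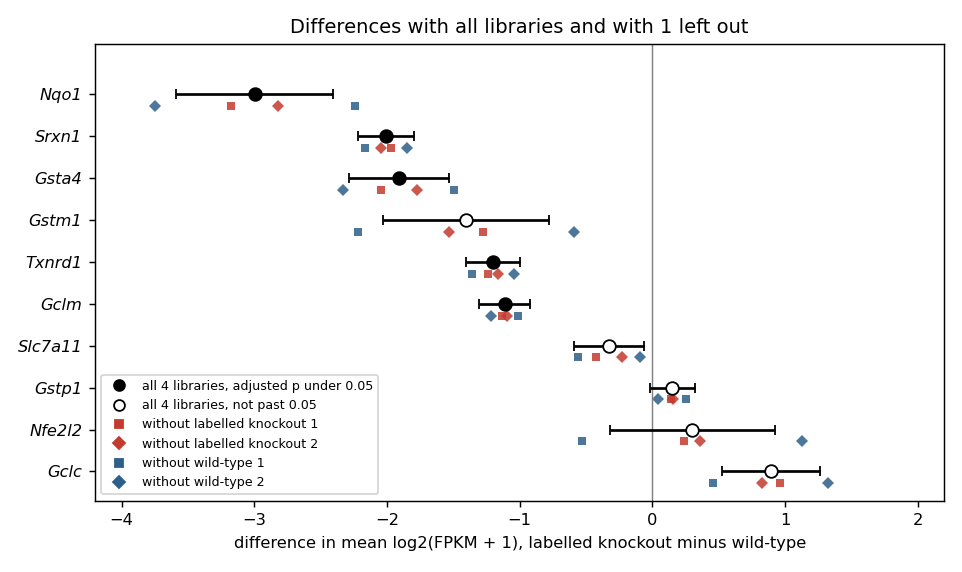
Difference in mean log2(FPKM + 1) of each gene, labelled knockout minus wild-type, with its SE from all 4 libraries (filled where the adjusted p was under 0.05), and below it the difference with each library left out. Nqo1, Srxn1, Gsta4, Txnrd1 and Gclm stay on the negative side in each case, while Nfe2l2 lies at -0.53 or 1.13 by the wild-type library left out.

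Since FPKM is scaled by transcript length, levels of different genes can be set side by side. In the knockout-labelled libraries Gstp1 (91.0 ± 0.598 FPKM) stood highest, followed by Nfe2l2 (55.3 ± 3.33), Txnrd1 (24.8 ± 0.902), Gclm (16.0 ± 0.373), Gclc (14.7 ± 1.06), Srxn1 (11.3 ± 0.473) and Gstm1 (5.48 ± 0.821; SD, n = 2 each). Gsta4, Slc7a11 and Nqo1 had the lowest means, with overlapping values between 1.12 and 1.95 FPKM. By mean level the order in wild-type was Gstp1 (82.2 ± 8.62 FPKM), Txnrd1 (58.8 ± 9.17), Nfe2l2 (52.4 ± 39.1), Srxn1 (48.5 ± 7.58), Gclm (35.9 ± 3.73), Nqo1 (20.8 ± 14.8), Gstm1 (18.9 ± 14.4), Gsta4 (9.53 ± 4.21), Gclc (7.85 ± 3.64) and Slc7a11 (2.15 ± 0.725). There the values of Nfe2l2 overlapped with those of Gstp1, Txnrd1, Srxn1, Gclm, Nqo1 and Gstm1, Txnrd1 overlapped with Srxn1, and Nqo1, Gstm1, Gsta4 and Gclc overlapped each with the next.

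The epithelial marker sum was 10.1-fold lower in the knockout-labelled libraries, although 1 of the 8 markers (Cldn3) passed as lower and 7 did not pass. The median difference of the 8 markers was -2.91 on the same log2 scale. Both values turned on the first wild-type library, and with it left out the sum was 3.69-fold lower and the median difference -1.81. In the same setting the differences were -2.24 for Nqo1, -2.16 for Srxn1, -1.49 for Gsta4, -1.36 for Txnrd1 and -1.01 for Gclm. With the second left out the sum was 16.5-fold lower and the median difference -4.01. There the differences were -3.75 for Nqo1, -2.33 for Gsta4, -1.85 for Srxn1, -1.22 for Gclm and -1.04 for Txnrd1. The part of the epithelial markers in the falls was not tested. The 2 wild-type libraries differed in the epithelial sum by 4.48-fold and in the macrophage sum the other way. Also higher in the second were the endothelial (5.72-fold), adipocyte (5.33-fold), lymphocyte (4.19-fold), fibroblast (2.72-fold) and neutrophil (2.12-fold) sums. The myoepithelial sum was 3.07-fold higher in the first, and 1 contrast cannot separate all these. Nqo1 and Gsta4 were higher in the first, epithelial-rich library, by 3.01-fold and 1.91-fold. Gclm was 1.16-fold higher there, whereas Srxn1 and Txnrd1 were higher in the second library. Gstm1 and Nfe2l2 were 3.34-fold and 3.24-fold higher in the second wild-type library, where the macrophage sum was 33.9-fold higher, and the part of those cells was not tested either.

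**Figure D3:**
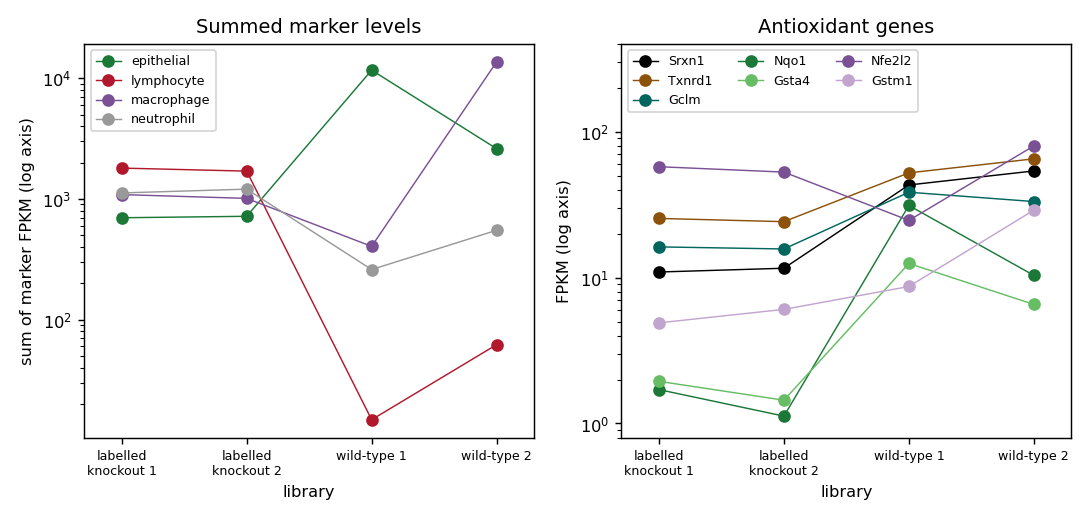
Summed FPKM of epithelial, lymphocyte, macrophage and neutrophil markers (left) and FPKM of 7 antioxidant genes (right) in each library, on log axes, with lines only to join points of the same list or gene. In the second wild-type library Nqo1 and Gsta4 are lower than in the first, and Srxn1 and Txnrd1 are higher. The epithelial sum is lower there and the macrophage sum higher, and their part was not tested.

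Promoter sequences of 4 genes are shown because Srxn1, Txnrd1 and Gclm fell and hold a match to the core of the antioxidant response element, and because Gstp1 holds a match and did not pass. Each window runs from 250 bases before to 50 bases after a start site in RefSeq (GRCm38.p6, a later build than the mm9 of the expression table), 5′ to 3′ on the gene's strand. Both strands were searched for TGACNNNGC and TGAGNNNGC, which cannot overlap on 1 strand at the same position, and capitals mark the matches.
Srxn1 (chr2:152105274-152105573, + strand): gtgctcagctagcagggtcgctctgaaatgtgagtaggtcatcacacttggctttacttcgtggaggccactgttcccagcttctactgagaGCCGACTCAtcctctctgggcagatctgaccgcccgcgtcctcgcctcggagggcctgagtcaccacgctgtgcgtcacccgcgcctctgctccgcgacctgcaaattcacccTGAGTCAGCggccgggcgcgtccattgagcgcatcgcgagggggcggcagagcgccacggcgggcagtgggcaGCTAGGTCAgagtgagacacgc
Txnrd1 (chr10:82858956-82859255, + strand): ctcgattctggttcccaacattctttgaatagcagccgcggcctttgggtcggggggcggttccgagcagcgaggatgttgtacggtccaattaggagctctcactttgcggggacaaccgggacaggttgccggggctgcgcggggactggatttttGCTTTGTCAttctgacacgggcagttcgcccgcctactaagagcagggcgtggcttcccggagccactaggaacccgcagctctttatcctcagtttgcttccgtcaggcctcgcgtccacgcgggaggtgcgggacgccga
Gclm (chr3:122245307-122245606, + strand): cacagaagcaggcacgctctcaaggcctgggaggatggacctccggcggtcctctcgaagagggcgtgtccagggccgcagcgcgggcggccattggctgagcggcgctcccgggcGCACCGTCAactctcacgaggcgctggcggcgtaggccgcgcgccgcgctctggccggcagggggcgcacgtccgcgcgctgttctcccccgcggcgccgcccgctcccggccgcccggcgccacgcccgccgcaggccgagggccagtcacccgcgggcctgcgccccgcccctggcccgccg
Gstp1 (chr19:4037863-4038162, - strand): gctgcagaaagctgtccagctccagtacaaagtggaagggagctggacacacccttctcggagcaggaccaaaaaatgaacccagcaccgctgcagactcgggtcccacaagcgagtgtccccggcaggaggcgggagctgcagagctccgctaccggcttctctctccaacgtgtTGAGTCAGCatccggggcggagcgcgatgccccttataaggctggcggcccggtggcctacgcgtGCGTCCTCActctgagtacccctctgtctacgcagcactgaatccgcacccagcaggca

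The Srxn1 window held 3 matches, with first bases at -158, -45 and 29 from the start site. In the Txnrd1 window, 1 of 3 for that gene, the match began at -92, and in Gclm at -134. Gstp1 had matches at -74 and -9, and the match at -74 had the same letters, TGAGTCAGC, as the Srxn1 match at -45. Of the 10 genes 8 had a window in the table, 11 windows in all, and 6 of the 11 held a match. Slc7a11 and Nfe2l2, which did not pass, were among them, and Nqo1 and Gstm1 had no match to these letters in this window. Among all 32851 windows 12.4% held TGACNNNGC, 17.6% TGAGNNNGC and 27.8% either. A match is a description of the letters and not a measured binding site.

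The other genes of the pathway were read in 7 lists with 99 genes, of which 84 were tested. Of these 14 fell (16.7%) and 5 rose (5.95%), against 6.99% and 9.51% of all tested genes, and the median difference was -0.58. The lists were chosen with earlier results of these data known, so these shares are a description only. The 15 genes below the filter got no test. Without either knockout-labelled library 0 of these genes passed, and 4 passed with the replicate number as a block (Gstm5, Mgst1, Mgst2 and Sesn3). The epithelial sum was lower and the lymphocyte sum higher in the same knockout-labelled libraries, and their part was not tested.

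Thioredoxin and peroxiredoxin genes moved in both directions, with 4 of 14 lower, 3 higher and 7 not past (median difference 0.03). Of all tested genes 6.99% were called lower and 9.51% higher. Txn1, thioredoxin itself and the substrate of Txnrd1, was at 133 and 140 FPKM in the knockout-labelled libraries, against 272 and 285 FPKM in wild-type (difference -1.03, SE 0.14; limma, adjusted p = 0.032). The peroxiredoxin genes Prdx1, Prdx2 and Prdx4, whose products destroy peroxides, fell too, by differences of -1.37 (SE 0.24), -1.49 (SE 0.23) and -1.78 (SE 0.18). Prdx6, a peroxiredoxin that uses glutathione, rose to 225 and 188 FPKM in the knockout-labelled libraries, against 75.8 and 57.9 FPKM in wild-type (difference 1.62, SE 0.22; limma, adjusted p = 0.032). Txnip, a binding partner that inhibits thioredoxin, was at 132 and 128 FPKM in the knockout-labelled libraries, against 60.4 and 48.7 FPKM in wild-type, and rose by 1.24 (SE 0.19).

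Sesn3, a sestrin, rose by 2.53 (SE 0.23), with 21.0 and 17.4 FPKM in the knockout-labelled libraries and 2.34 and 2.62 FPKM in wild-type. Its relative Sesn1 had a difference of 2.33 (SE 0.53; limma, adjusted p = 0.061). Prdx5 and Txnrd2, the mitochondrial thioredoxin reductase, had differences of -0.70 and -0.66 and did not pass. The list thus held genes of the reducing chain that fell beside genes that rose.

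Among the other glutathione transferases 3 of 15 tested genes fell, 1 rose and 11 did not pass (median difference -1.19). The shares over all tested genes were 6.99% lower and 9.51% higher. Mgst1, a membrane-bound transferase, was at 52.9 and 52.9 FPKM in the knockout-labelled libraries, against 401 and 199 FPKM in wild-type (difference -2.40, SE 0.39; limma, adjusted p = 0.037). Its relative Mgst2, which can conjugate leukotriene, was at 12.0 and 13.0 FPKM in the knockout-labelled libraries, against 0.198 and 1.31 FPKM in wild-type (difference 3.02, SE 0.40; limma, adjusted p = 0.031). The 2 enzymes were thus at opposite ends of the list.

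The other mu-class genes gave a range of differences. Gstm5 fell by 2.37 (SE 0.29) and Gstm7 by 1.26 (SE 0.22) on the log2 scale. Gstm7 was at 0.190 and 0.423 FPKM in the knockout-labelled libraries, against 2.47 and 1.78 FPKM in wild-type. So near the pseudocount of 1 its difference is understated. Gstm2 had a difference of -1.55 (SE 0.64) and Gstm4 of -0.06 (SE 0.30), neither past the threshold. Gstm3 was under the filter at 0.315 and 0.350 FPKM in the knockout-labelled libraries, against 0.512 and 1.63 FPKM in wild-type, and Gstm6 was listed at 0 in all 4. Gstz1, Gsto1 and Mgst3 were just outside the threshold, with differences of -1.19, -1.11 and -2.33 (limma, adjusted p = 0.054, 0.060 and 0.060).

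In the list of glutathione synthesis, recycling and turnover, 1 of 15 tested genes fell and 14 did not pass (median difference -0.48). The share called lower over all tested genes was 6.99%. Gss, glutathione synthetase, which completes the tripeptide after the step of Gclc and Gclm, was at 5.01 and 4.04 FPKM in the knockout-labelled libraries, against 24.9 and 14.2 FPKM in wild-type (difference -1.85, SE 0.35; limma, adjusted p = 0.046). Both knockout-labelled libraries were below either wild-type library. Slc1a5, a glutamine transporter, had 41.5 and 54.4 FPKM in the knockout-labelled libraries, against 3.02 and 13.9 FPKM in wild-type, and did not pass (adjusted p = 0.079). Ggt6 and Oplah, an oxoprolinase of glutathione turnover, had differences of -1.15 and -1.02 (adjusted p = 0.066 and 0.084).

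Glutathione peroxidase genes had negative differences in all 5 tested cases, of which Gpx1 passed (median difference -0.99, against 0.08 over all tested genes). Among all tested genes 6.99% were called lower. Gpx1 was at 266 and 246 FPKM in the knockout-labelled libraries, against 497 and 596 FPKM in wild-type (difference -1.08, SE 0.16; limma, adjusted p = 0.034). Gpx4, which reduces lipid hydroperoxides in membranes, was at 308 and 356 FPKM in the knockout-labelled libraries, against 468 and 379 FPKM in wild-type, and did not pass (adjusted p = 0.24). Gpx3 and Gpx7 had differences of -0.99 and -1.12 and did not pass. None of the 4 superoxide dismutase and catalase genes passed (median difference -0.34). Cat, catalase, differed by -0.75 (adjusted p = 0.080), the mitochondrial Sod2 by -0.57 (adjusted p = 0.10) and the cytosolic Sod1 by 0.50 (adjusted p = 0.18).

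Regulators of Nrf2 had 3 of 11 genes lower, 1 higher and 7 not past (median difference -0.48). For all tested genes the shares were 6.99% lower and 9.51% higher. Sqstm1, the autophagy receptor p62 that binds Keap1 and is itself an Nrf2 target, was at 226 and 220 FPKM in the knockout-labelled libraries, against 524 and 427 FPKM in wild-type (difference -1.08, SE 0.17; limma, adjusted p = 0.036). Maff, a small Maf partner, fell by 1.63 (SE 0.26). Nfe2l3, a relative of Nrf2, was at 0.572 and 0.348 FPKM in the knockout-labelled libraries, against 3.20 and 2.14 FPKM in wild-type. Its fall of 1.32 (SE 0.24) is understated at levels so near the pseudocount of 1. The Nfe2l3 call also ended with a pseudocount of 0.1, a common total and quantile normalization (limma, adjusted p = 0.052, 0.053 and 0.051). Bach2, a repressor known for its role in B and T cells, rose to 3.22 and 2.44 FPKM in the knockout-labelled libraries, against 0.182 and 0.605 FPKM in wild-type (difference 1.47, SE 0.26). The lymphocyte sum was higher in the same libraries, and its part was not tested. Keap1 (5.60 and 6.56 FPKM in the knockout-labelled libraries, 9.64 and 8.18 FPKM in wild-type), Cul3, the scaffold of its ligase, and Mafg did not pass, with differences of -0.48, 0.55 and -0.52.

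Other Nrf2 targets were mostly on the negative side, at 17 of 20 tested genes, but 2 passed. Their median difference was -0.87, where all tested genes had 0.08 and 6.99% of all tested genes passed as lower. Taldo1, transaldolase of the pentose phosphate pathway, was at 137 and 133 FPKM in the knockout-labelled libraries, against 289 and 321 FPKM in wild-type (difference -1.17, SE 0.15; limma, adjusted p = 0.030). Slc48a1, a heme transporter, fell by 1.11 (SE 0.21). Hmox1, heme oxygenase, which macrophages also express, was at 70.0 and 67.4 FPKM in the knockout-labelled libraries, against 155 and 392 FPKM in wild-type, and did not pass (adjusted p = 0.081). It was highest in the second wild-type library, where the macrophage sum was highest, and the part of those cells was not tested. Akr1b8 and Ephx1, an epoxide hydrolase, had differences of -1.45 and 0.79 and did not pass (adjusted p = 0.076 and 0.079).

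**Figure D4:**
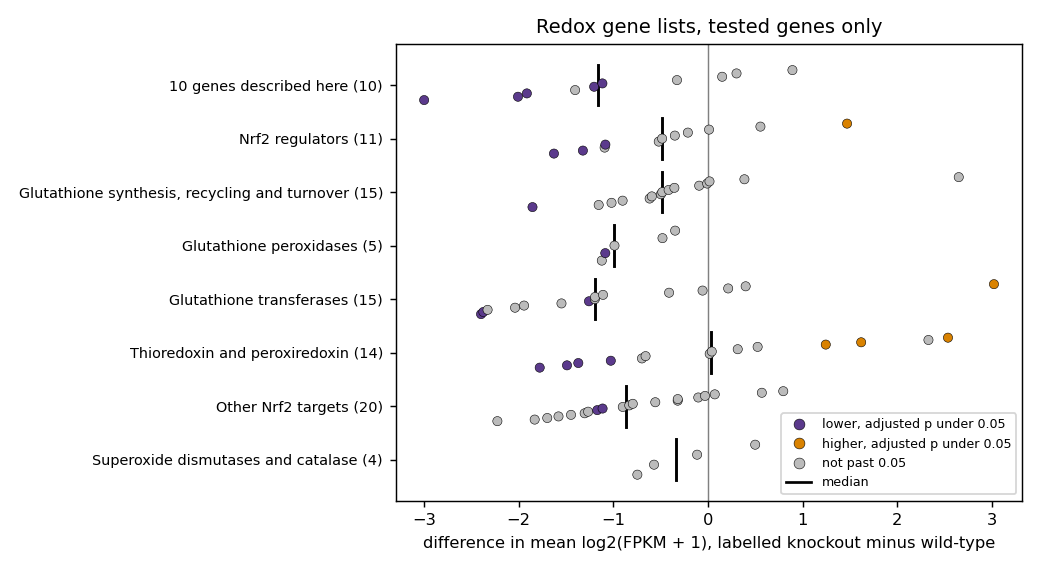
Difference in mean log2(FPKM + 1), labelled knockout minus wild-type, of each tested gene in the 10 genes described and the 7 further lists (number of tested genes in brackets), with the list median as a black bar. Purple points passed as lower and orange points as higher, and the thioredoxin and peroxiredoxin list has both, with a median of 0.03.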

How the data were processed

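RNA was sequenced from 4 sorted cell samples, 2 per group, with a low-input SMARTer kit per the labels' protocols. Groups were read from the sample titles. The deposited values are FPKM for 24043 rows, made by the authors. The unit was inferred from the numbers, since the header gives none and totals differ between libraries (401786 and 402946 labelled knockout, 402436 and 449838 wild-type). The submitters' processing notes name mm9. No aligner, quantifier or annotation is named in the sources used here. Of genes below 0.1 FPKM in both libraries compared, 50.4 to 60.4% had a ratio made of whole numbers no larger than 6 (tolerance 0.2%), against 0.7 to 0.8% off that scale, which puts depth, taking the second knockout-labelled library as 1, at 0.927 for the first, and 1.03 and 0.849 for wild-type. Absolute depth is unknown, so no counting interval is given.

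Spike-in rows (92, all at 0) were left out. The 11138 genes that reached 1 FPKM in 2 or more libraries were fitted on log2(FPKM + 1) with limma 3.58.1 in R 4.3.3 (trended and robust prior, genotype only, Benjamini-Hochberg at 0.05). With 2 against 2, permutation cannot go below p = 0.33. The named genes are the 10 members, Kdm1a, list genes past the threshold, up to 3 others per list by rank of p (mean 1 FPKM or more), and near copies of Gstp1 and Gstm1. Members and lists were chosen with earlier results of these data known. Alternatives covered pseudocount, filter, scaling, prior, a replicate block and leaving out each library. Of the marker and pathway symbols, Ly6g had no row and Adgre1 was matched as Emr1.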

Additional observations from a re-analysis of the deposited data

How the results depend on the processing

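No member changed direction in any setting run except Nfe2l2, whose difference became -0.53 with the first wild-type library left out (1.13 with the second left out). The count of members that fell, 5 with all libraries, was 4 with a pseudocount of 0.1 and after quantile normalization, 2 after rescaling to a common total, 2 with a replicate block and 0 with no filter on low values. Leaving out 1 library at a time gave 0 to 8 members lower and 0 to 2 higher, with 0 for either knockout-labelled library. With 1 wild-type library left, 8 fell and 2 rose without the first and 6 fell and 2 rose without the second, but there the lone library is assumed to vary like the other group. Far more of all tested genes also passed in those settings than with all libraries, in both directions. The rise in these counts is thus not particular to the members. Over all tested genes, 1059 higher and 778 lower calls became 346 and 155 with the replicate block. With no filter they became 2 and 0 (5063 at an unadjusted p under 0.05, limma). Leaving out 1 library gave 0 to 4269 higher and 0 to 3643 lower calls (limma, with 1385 and 1346 genes at an unadjusted p under 0.05 where 0 passed). The 19 pathway genes past the threshold became 4 with the replicate block and 0 with no filter, and 0 to 69 with 1 library left out. The titles share replicate numbers, but deviations of same-numbered libraries had a correlation of -0.06, so the numbers were not taken to pair the samples. The calls rest on the close pair labelled knockout, and 2 libraries per group limit the precision. The causes of these changes were not tested.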

Other observations

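Some genes of the lists stood high in a single library, and they were chosen after their values were seen. Chac1, which degrades glutathione and is known as a target of the amino acid stress response, was at 0.245 and 0.341 FPKM in the knockout-labelled libraries, against 11.8 and 0.368 FPKM in wild-type, and got no test because 1 library passed the filter. Nfe2l1, a relative of Nrf2, was at 9.01 and 10.03 FPKM in the knockout-labelled libraries, against 43.1 and 10.4 FPKM in wild-type. Both were high in the epithelial-rich first wild-type library. Hpgds, a prostaglandin D synthase of the glutathione transferase family, was at 0.918 and 1.28 FPKM in the knockout-labelled libraries, against 0.256 and 17.2 FPKM in wild-type. Abcc3, an exporter of glutathione conjugates, was at 0.357 and 0.307 FPKM in the knockout-labelled libraries, against 0.991 and 10.4 FPKM in wild-type. Both were high in the macrophage-rich second wild-type library, as was the ferritin light chain gene Ftl1, at 2099 and 2143 FPKM in the knockout-labelled libraries, against 2983 and 8719 FPKM in wild-type.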
